A study of Mus musculus with 3 samples.

Results

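The cells described here were selected as mural cells and pericytes of the mouse embryonic trunk and were chosen by their own transcript counts. A cell is a barcode with at least 4000 unique molecular identifiers (UMIs, each a captured transcript), at least 500 detected genes and at most 10% of UMIs from mitochondrial genes. A cell was selected when Rgs5, Kcnj8, Abcc9 and Notch3 together gave at least 4 UMIs, Pdgfrb gave at least 1, and Cdh5 (endothelium), Elavl3 (neurons) and Sox10 (neural crest and Schwann cells) gave 0. This found 215 of 19567 cells: 55 of 6313 cells at E11.5 (embryonic day), 74 of 6140 in the E12.5 library and 86 of 7114 in the E13.5 library. Their shares were 0.871% (95% Clopper-Pearson interval 0.657 to 1.13), 1.21% (0.948 to 1.51) and 1.21% (0.968 to 1.49). The interval at E11.5 overlapped those of both later stages.

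Each stage is 1 droplet library (10x Genomics Chromium 3', version 3.1) made from 3 pooled littermate embryos. The dissected tissue spans segments C3 to T2 with the neural tube; forelimbs and organs of the chest were removed. No genotype, strain, sex or treatment is given in the sources used here, and no group was treated differently from another. With 1 library a stage there is no replicate check, no difference was tested, and stage, litter and library cannot be told apart; all intervals are 95% intervals that cover counting error only.

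Pericytes are contractile cells embedded in the basement membrane of capillaries, and vascular smooth muscle cells wrap larger vessels; together they are called mural cells. Endothelial cells release PDGF-B, which recruits cells that carry its receptor, encoded by Pdgfrb. NOTCH3 is a receptor that these cells use to read ligands on the vessel wall and on each other, with Heyl among its target genes. Kcnj8 and Abcc9 encode the pore and the sulfonylurea receptor of an ATP-sensitive potassium channel, and Rgs5 encodes a protein that shortens G protein signalling. In the trunk, mural cells arise largely from mesoderm that also gives rise to fibroblasts.

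The promoters of 2 pairs of genes that recur below are printed because they hold the letters that 2 regulators of mural genes are known to read. SRF, a regulator of contractile genes, binds the CArG box, and RBPJ, the DNA-binding partner of Notch receptors, binds the core TGGGAA. The windows run from 250 bases before to 50 after the annotated start (RefSeq, build GRCm38.p6; the count matrices use GRCm39), and capitals mark the matches. Acta2 (smooth muscle actin, chr19:34255324-34255623, minus strand) and Myl9 (myosin light chain, chr2:156775214-156775513, plus strand) hold CArG boxes, allowing 1 mismatch in the box's weak-pairing core. Kcnj8 (chr6:142571565-142571864, minus strand) and Abcc9 (chr6:142702225-142702524, minus strand), which lie near each other on chromosome 6, hold the RBPJ core.
Acta2: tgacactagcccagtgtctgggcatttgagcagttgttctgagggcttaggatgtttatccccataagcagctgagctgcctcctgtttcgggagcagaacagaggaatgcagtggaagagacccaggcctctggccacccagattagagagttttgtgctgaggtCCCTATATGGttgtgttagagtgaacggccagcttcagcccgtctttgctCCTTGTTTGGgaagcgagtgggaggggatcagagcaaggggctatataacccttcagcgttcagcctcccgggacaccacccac
Myl9: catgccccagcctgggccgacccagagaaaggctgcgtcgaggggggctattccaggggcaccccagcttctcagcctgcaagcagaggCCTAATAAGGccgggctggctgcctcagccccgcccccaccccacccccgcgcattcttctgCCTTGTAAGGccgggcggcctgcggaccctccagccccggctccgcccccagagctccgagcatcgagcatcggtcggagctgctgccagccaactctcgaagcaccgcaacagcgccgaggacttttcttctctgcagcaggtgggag
Kcnj8: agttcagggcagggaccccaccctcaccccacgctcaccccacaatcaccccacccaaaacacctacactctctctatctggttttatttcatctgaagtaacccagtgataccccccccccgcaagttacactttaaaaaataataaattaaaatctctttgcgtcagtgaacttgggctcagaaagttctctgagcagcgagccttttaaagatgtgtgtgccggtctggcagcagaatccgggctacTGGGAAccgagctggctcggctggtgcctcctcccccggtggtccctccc
Abcc9: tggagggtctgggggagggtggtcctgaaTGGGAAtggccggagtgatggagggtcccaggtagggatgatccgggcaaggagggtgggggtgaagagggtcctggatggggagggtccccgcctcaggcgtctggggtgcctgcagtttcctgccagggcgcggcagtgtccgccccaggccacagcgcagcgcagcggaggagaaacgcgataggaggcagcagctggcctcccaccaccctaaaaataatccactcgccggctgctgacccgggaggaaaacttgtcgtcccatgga
Among 22 genes looked up, 14 were in the table; Heyl, Tagln, Foxs1, Pdgfrb, Ndufa4l2, Cox4i2, Myh11 and Hey1 were not. In Acta2 the CArG boxes lie at positions 167 to 176 and 217 to 226 of the printed window, and in Myl9 at 90 to 99 and 152 to 161; no other of the 14 held one. TGGGAA lies at 251 to 256 in Kcnj8 and 30 to 35 in Abcc9, and was also found in Vtn, Gucy1b1 and Acta2, where it overlaps the second CArG box. Searched on both strands over 32851 promoters of this length, the relaxed CArG box was in 9.98% and TGGGAA in 25.6%. A match describes letters and shows no binding.

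The 3 libraries held 103383215, 94155624 and 113402193 UMIs over 33696 genes. Median UMIs per selected cell were 17307, 18718.5 and 16782.5 in stage order, against 12481, 11002 and 10242 in the other cells; median mitochondrial shares were 4.23%, 4.05% and 4.34%. A threshold on raw UMIs favours cells with more UMIs. Free RNA, judged from haemoglobin UMIs, made up 2.05%, 1.27% and 1.43% of the selected cells' UMIs. The doublet caller marked 2.88%, 1.97% and 2.35% of cells and 1, 3 and 2 of the selected cells, which were kept. Between libraries 10 to 16 cell barcodes were shared, none of them a selected cell's.

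Levels are CPM, a gene's UMIs per 1000000 UMIs summed over a group of cells, with values always in stage order from E11.5. The genes of the rule are a description, since they chose the cells. Rgs5 stood at 216, 189 and 131 CPM, Kcnj8 at 62.6, 78.8 and 164.5, and Abcc9 at 64.6, 58.4 and 111.5. Notch3 stood at 80.8, 110 and 85.6 CPM and Pdgfrb at 185, 108 and 181. The 4 summed genes were carried by different cells at different stages. Rgs5 was detected in 46, 29 and 25 selected cells, and Kcnj8 in 15, 30 and 68. At E11.5 the most frequent combinations were Rgs5 with Notch3 (18 cells) and Rgs5 alone (16 cells). At E12.5 Notch3 alone led with 22 cells, and at E13.5 Kcnj8, Abcc9 and Notch3 without Rgs5 led with 24. Only 6, 11 and 13 cells held all 4. Of the cells with the channel's pore gene Kcnj8, 14 of 15, 26 of 30 and 58 of 68 also held Abcc9, against 7.5%, 22.7% and 55.6% of those without Kcnj8; both genes are in the sum that chose the cells, so these shares are no finding. The UMI sum over the 4 genes had a median of 5, 5.5 and 6.5 and a highest value of 26, 84 and 40.

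**Figure D1:**
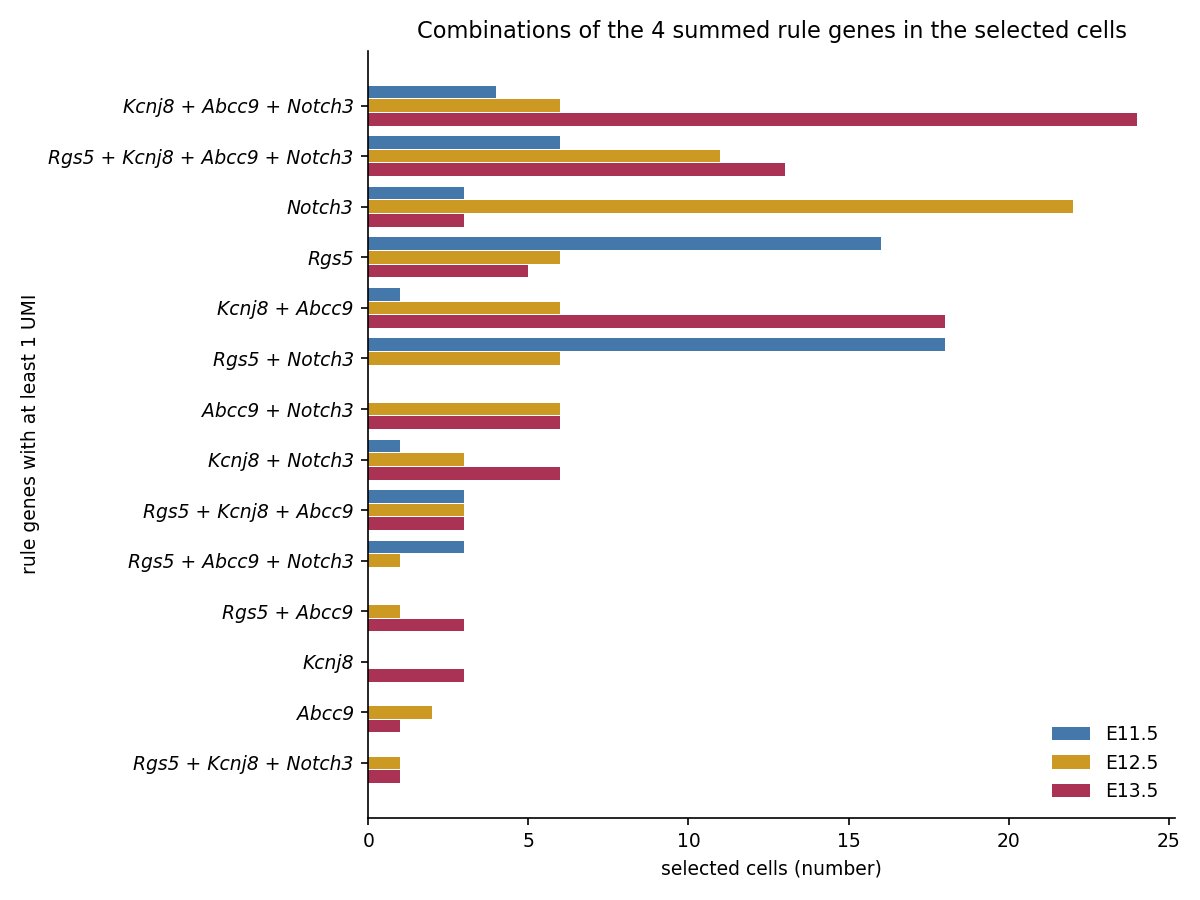
Number of selected cells (x axis) with each combination of Rgs5, Kcnj8, Abcc9 and Notch3 (y axis, at least 1 UMI each), in 1 bar per stage. Rgs5 alone or with Notch3 holds 16 and 18 cells at E11.5, Notch3 alone 22 at E12.5, and Kcnj8, Abcc9 and Notch3 24 at E13.5.

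To describe how far the label fits, 24 other genes known from pericytes were read, a list chosen with earlier results of these data known. Of these, 18, 23 and 23 had a UMI in the selected cells. The 24 genes gave 1050, 749.8 and 1339 CPM in sum in the selected cells, against 374, 483 and 425 in all other cells of the library. Much of the sum in the selected cells came from Ebf1 (359, 258 and 643 CPM) and Vtn (275, 72.0 and 39.8). A gene was counted in a comparison when it had, or was expected to have at the comparator's level, at least 10 UMIs in the selected cells. A low gene can thus enter only where the selected cells are high, which favours higher genes, so the counts describe and do not test the label. At least 2-fold higher than in the other cells were 10 of 13, 14 of 18 and 12 of 16 genes in stage order, and none was 2-fold lower. Over all genes counted, 6.8%, 3.42% and 2.69% were 2-fold higher. The list's median log2 ratio was 2.77, 1.95 and 1.93, against 0.01, 0.07 and 0.01 over all genes. A closer comparator is the other Pdgfrb-positive cells with none of the 4 summed genes, 829, 875 and 1180 cells. Against these, 11 of 13, 13 of 18 and 11 of 17 pericyte genes were 2-fold higher (all genes: 6.25%, 3.58% and 3.26%), and 1, Enpep at E13.5 (3 UMIs), was 2-fold lower. In this comparator Ebf1 stood at 117, 202 and 183 CPM and Vtn at 15.5, 18.7 and 9.23. Endothelial cells (at least 2 Cdh5 UMIs; 56, 83 and 128 cells) served as a further comparator from the vessel wall. At least 4-fold higher than in them were 6.8%, 2.81% and 1.85% of all genes. Against them 11 of 14, 11 of 18 and 12 of 17 pericyte genes were 2-fold higher (all genes: 15%, 8.32% and 8.33%) and 2, 1 and 3 lower (10.1%, 10% and 12.1%).

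Heyl, the Notch target, stood at 71.7, 46.5 and 62.1 CPM in the selected cells, 8.11, 4.48 and 4.30 in the other cells and 3.15, 1.99 and 1.74 in the other Pdgfrb-positive cells. Its log2 ratio to the latter was 4.51 (3.92 to 5.12), 4.55 (3.87 to 5.28) and 5.16 (4.49 to 5.88), so its level was higher in all 3 libraries. Notch3 is at 0 in that comparator by definition, so this contrast is not independent of the selection. Heyl was found in 24, 29 and 42 selected cells, 43.6%, 39.2% and 48.8%. With every cell thinned to 4000 UMIs those shares were 23.6%, 16.2% and 25.6%, against 0.603%, 0.571% and 0.593% of the other Pdgfrb-positive cells. Macrophages, which should lack the gene, gave 0%, 0% and 0.348% at median depths of 22000, 19337 and 12960 UMIs before thinning. Cell by cell among the selected cells, log2 levels of Rgs5 and Heyl had r = -0.11, 0.51 and 0.02 over 55, 74 and 86 cells. Rgs5 is in the sum that chose the cells, so these values are no finding.

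Foxs1, a forkhead factor of pericytes, stood at 18.2, 13.0 and 21.1 CPM, against 0.497, 0 and 0.0756 in the other Pdgfrb-positive cells, at least 50.3-fold higher at E12.5 (against 3 counts in that group). Mcam, a surface protein of vessel cells, stood at 45.4, 45.4 and 80.7 CPM against 3.07, 3.11 and 6.28. Ndufa4l2, a mitochondrial protein known to be high in pericytes, stood at 40.4, 45.9 and 95.2 CPM against 1.66, 1.56 and 2.50. Cspg4, the NG2 proteoglycan, stood at 12.1, 22.7 and 30.7 CPM against 2.24, 5.97 and 9.001. All 4 genes were more than 3-fold higher at each stage, with intervals that did not reach 0 on the log2 scale. The connexin gene Gja4 stood at 7.07, 13.6 and 10.2 CPM against 0.0829, 0.259 and 0.303, though from 7, 24 and 17 UMIs in 3, 5 and 8 cells.

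Other genes of the list were near the comparator or rested on few UMIs. The mesenchymal factor Tbx18 stood at 19.2, 28.4 and 26.5 CPM against 20.6, 36.4 and 39.3 in the other Pdgfrb-positive cells. The sphingosine receptor S1pr3 stood at 48.5, 51.1 and 59.7 CPM against 42.0, 70.1 and 51.4. Higd1b, known from adult brain pericytes, had 0, 6 and 6 UMIs in all (0, 3.40 and 3.62 CPM against 0, 0 and 0.151), and Atp13a5 had 0 at each stage, which allows up to 3.03, 1.70 and 1.81 CPM. The aminopeptidase gene Anpep had 0, 25 and 10 UMIs (0, 14.2 and 6.03 CPM against 2.07, 4.06 and 8.40), with 60% of those at E12.5 in 1 cell.

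**Figure D2:**
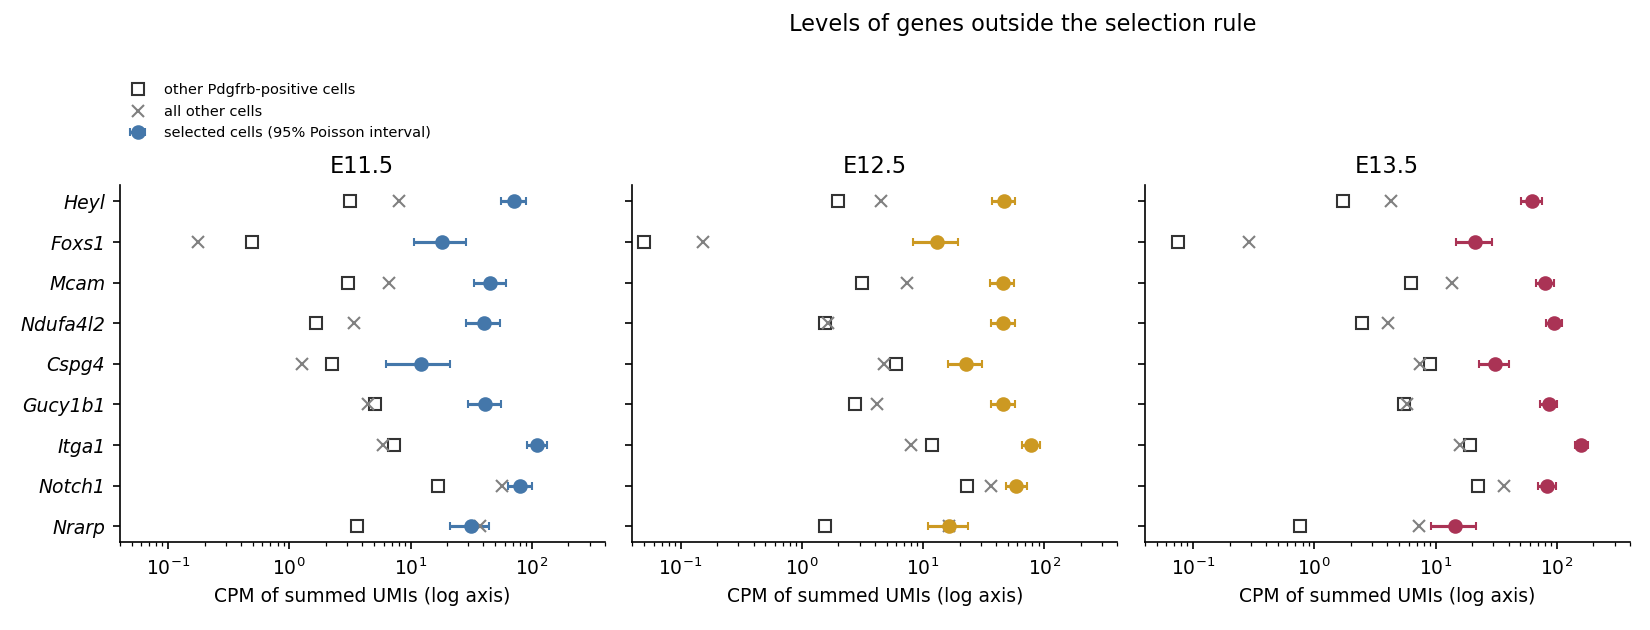
CPM of summed UMIs (x axis, log) for 9 genes outside the rule (y axis), 1 panel per stage. Filled circles are the selected cells with their 95% Poisson interval, open squares the other Pdgfrb-positive cells and crosses all other cells; Foxs1 is at 0 in the squares at E12.5 and is drawn at the left edge. Heyl, Foxs1, Mcam, Ndufa4l2, Cspg4, Gucy1b1 and Itga1 stand above both comparators in each panel, and Nrarp only above the other Pdgfrb-positive cells in the first 2 panels.

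Among 22 genes of vessel tone, 7 of 14, 7 of 14 and 5 of 13 were 2-fold higher than in the other cells and 3, 3 and 2 lower (all genes: 6.8%, 3.42% and 2.69% higher, 6.84%, 7.34% and 7.2% lower). Gucy1a1 and Gucy1b1 encode the subunits of soluble guanylate cyclase, the enzyme that senses nitric oxide. Gucy1a1 stood at 14.1, 33.5 and 86.2 CPM against 4.21, 2.14 and 2.40 in the other cells, and Gucy1b1 at 41.4, 45.9 and 85.6 against 4.45, 4.198 and 5.82. Both subunits were thus higher at each stage, by log2 ratios of 1.75, 3.96 and 5.17 for Gucy1a1 and 3.22, 3.45 and 3.88 for Gucy1b1. Pde3a, a phosphodiesterase that cyclic GMP inhibits, stood at 27.3, 26.1 and 45.8 CPM against 5.10, 10.6 and 11.9. The cation channel gene Trpc6 stood at 18.2, 4.54 and 3.62 CPM against 0.483, 0.536 and 0.398. Its value at E11.5 came from 18 UMIs in 8 cells, 44.4% of them in 1 cell, and the later values from fewer UMIs. Of the endothelin receptors, Ednra stood at 39.4, 45.9 and 59.1 CPM against 21.3, 21.7 and 18.4, while Ednrb, at 4.04, 6.81 and 0 against 72.4, 52.9 and 47.3, was lower. Kcnj11 and Abcc8, the other pore and receptor of this channel family, had 0 UMIs, and 0, 2 and 1.

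The contractile programme was uneven between cells and stages. Of 22 smooth muscle genes, 9 of 14, 4 of 14 and 9 of 16 were 2-fold higher than in the other cells and 1 lower at each stage (all genes: 6.8%, 3.42% and 2.69% higher, 6.84%, 7.34% and 7.2% lower), with a median log2 ratio of 1.72, 0.78 and 1.15. Against the other Pdgfrb-positive cells 11 of 14, 4 of 14 and 8 of 15 were higher (all genes: 6.25%, 3.58% and 3.26%) and none lower, with a median of 1.59, 0.43 and 1.01. Acta2 stood at 1008, 442 and 964 CPM (946.8 to 1073, 412 to 475 and 917 to 1012), against 131, 275 and 284 in the other cells. Tagln, the actin-binding transgelin, stood at 719.7, 221 and 728 CPM against 62.0, 90.1 and 121, and Myl9 at 182, 176 and 211 against 48.2, 96.8 and 81.1. Acta2 and Tagln were lowest at E12.5, and Myl9 did not differ between the first 2 stages beyond counting error. That order rests on few cells: without the highest cell, the Acta2 log2 ratio in members at E12.5 over E11.5 was -0.67 in place of -1.19, and the Tagln log2 ratio in members at E12.5 over E11.5 was -1.06 in place of -1.70. Acta2 UMIs came from 15, 46 and 56 cells, and the 5 highest cells held 83.2%, 51.4% and 51.6% of them. At E11.5 the highest cell for each gene held 410 of the 999 Acta2 UMIs, 316 of the 713 Tagln UMIs and all 15 of Myh11. Myh11, the smooth muscle myosin of mature smooth muscle, had 3 UMIs at E12.5 and 27 at E13.5, 70.4% of these in 1 cell. Calponin (Cnn1) had 29, 6 and 13 UMIs in 4, 4 and 5 cells. Cell by cell, log2 levels of Acta2 and Tagln had r = 0.84, 0.71 and 0.65 over 55, 74 and 86 cells, and Acta2 and Heyl 0.13, 0.40 and 0.41. Of the regulators, Srf and Mef2c were found at each stage (Mef2c 139, 85.1 and 162 CPM), and the SRF partner Myocd had 2, 1 and 1 UMIs.

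**Figure D3:**
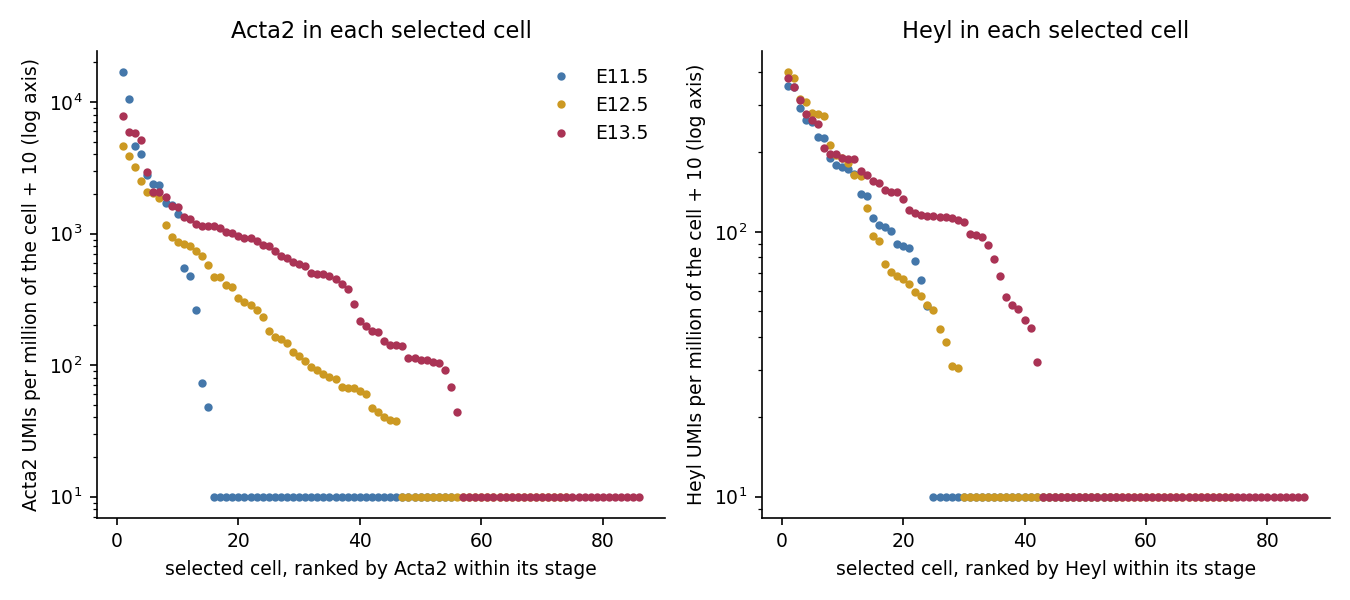
Acta2 (left) and Heyl (right) in each selected cell, as CPM of the cell plus 10 (y axis, log), with cells ranked within their stage (x axis); cells with no UMI lie at 10 and overlap. Acta2 spans a wide range with 15, 46 and 56 cells above 0, and Heyl a narrower one with 24, 29 and 42.

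Of 7 PDGF pathway genes other than Pdgfrb, 1 of 5, 2 of 6 and 0 of 5 were 2-fold higher than in the other cells (all genes: 6.8%, 3.42% and 2.69%), with a median log2 ratio of 0.80, 0.54 and -0.23. Against the other Pdgfrb-positive cells 2 of 5, 3 of 6 and 1 of 5 were higher and 0, 0 and 1 lower (all genes: 6.25%, 3.58% and 3.26% higher, 2.93%, 2.38% and 5.67% lower). The ligand gene Pdgfb, an endothelial product, had 1, 10 and 3 UMIs. Pdgfa stood at 54.5, 156 and 62.7 CPM against 10.9, 17.2 and 13.46 in the other Pdgfrb-positive cells. Against all other cells Pdgfa gave log2 ratios of 0.80, 1.33 and -0.23, and the ratio at E12.5 was -0.71 when at least 2 of the 4 summed genes had to be detected.

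Of 14 Notch pathway genes other than Notch3 and Heyl, 4 of 8, 5 of 9 and 5 of 9 were 2-fold higher than in the other Pdgfrb-positive cells (all genes: 6.25%, 3.58% and 3.26%) and none lower, with a median log2 ratio of 1.5, 1.18 and 1.3. The receptor gene Notch3 helped choose the selected cells and is at 0 in this comparator by definition. The contrast is therefore not independent of the selection and is a description only. Against all other cells 2 of 10, 3 of 11 and 3 of 9 were higher and 2, 2 and 0 lower (all genes: 6.8%, 3.42% and 2.69% higher, 6.84%, 7.34% and 7.2% lower). The receptor gene Notch1 stood at 80.8, 59.0 and 83.8 CPM against 16.8, 23.3 and 22.5 in the other Pdgfrb-positive cells. Nrarp, a target that damps Notch signalling, stood at 31.3, 16.5 and 14.5 CPM against 3.65, 1.56 and 0.756, and the ligand gene Jag1 at 61.6, 26.7 and 26.5 against 7.05, 14.1 and 10.7. Hey1, another target, stood at 16.2, 32.9 and 38.6 CPM against 9.78, 6.40 and 3.86. Dll4, a ligand of endothelial tips, had 0, 1 and 0 UMIs.

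Basement membrane genes were higher most widely at E11.5: 13 of 15, 5 of 14 and 4 of 17 were 2-fold above the other cells (all genes: 6.8%, 3.42% and 2.69%), with a median log2 ratio of 1.55, 0.92 and 0.5. Col4a1, a chain of the collagen IV network, stood at 424, 239 and 303 CPM against 45.7, 63.4 and 92.9, and Col4a2 at 224, 147 and 142 against 27.9, 42.6 and 49.2. The linker nidogen (Nid1) stood at 143, 107 and 119 CPM against 23.3, 41.4 and 63.2. Itga1, the collagen receptor subunit, stood at 111, 77.7 and 159.7 CPM against 5.92, 8.0 and 15.96, and kept a log2 ratio of 4.23, 3.28 and 3.32. Against the endothelial cells 2 of 16, 0 of 16 and 2 of 17 basement membrane genes were higher and 4, 9 and 9 lower (all genes: 15%, 8.32% and 8.33% higher, 10.1%, 10% and 12.1% lower), so most of the list was not set above endothelium. Of the paracrine list (angiopoietins, TGF-beta, sphingosine and VEGF genes), 4 of 14, 2 of 17 and 3 of 19 were 2-fold higher than in the other cells and 0, 1 and 1 lower (all genes: 6.8%, 3.42% and 2.69% higher, 6.84%, 7.34% and 7.2% lower). Its angiopoietin gene Angpt1, whose product acts on the endothelial receptor Tek, stood at 44.4, 25.0 and 16.3 CPM against 10.99, 12.02 and 12.85. The paracrine list's median log2 ratio to the other Pdgfrb-positive cells was 0.05, -0.07 and -0.06. Against the endothelial cells 7, 2 and 2 of its 20 genes were higher and 8 lower at each stage (all genes: 15%, 8.32% and 8.33% higher, 10.1%, 10% and 12.1% lower).

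Genes of other cell types were present in some selected cells. The rule required 0 UMIs of Cdh5, Elavl3 and Sox10, so the endothelial and neuron shares below are set in part by the selection. Of 7 meningeal-like genes, which include Aldh1a2 and Foxc1, at least 5 UMIs in sum were found in 52, 59 and 39 selected cells (94.5%, 79.7% and 45.3%, against 86.1%, 78.7% and 45.7% of the other cells). Of those counted, 4 of 6, 2 of 6 and 3 of 7 were 2-fold higher than in the other cells and 1, 0 and 2 lower (all genes: 6.8%, 3.42% and 2.69% higher, 6.84%, 7.34% and 7.2% lower), with a median log2 ratio of 2.15, 0.59 and -0.64. Cartilage genes reached 5 UMIs in 22, 11 and 4 selected cells (40%, 14.9% and 4.65%, against 17.7%, 12% and 4.82%). Of 10 endothelial genes, at least 5 UMIs in sum were found in 4, 5 and 18 selected cells (7.27%, 6.76% and 20.9%, against 1.25%, 0.89% and 1.76% of the other cells). Cldn5, a tight junction gene of endothelium, was at 0 at each stage, and Tie1 at E11.5 and E13.5; sums reached 14, 20 and 11. At E13.5 Emcn stood at 44.6 CPM and Flt1 at 20.5, while Kdr was at 1.81 and Pecam1 at 1.21. Of 8 macrophage genes, 5 or more UMIs were found in 1, 0 and 2 cells. Skeletal muscle genes reached 5 UMIs in 5, 16 and 7 selected cells (9.09%, 21.6% and 8.14%, against 5.31%, 8.95% and 10.7%). Neuron genes did so in 9, 24 and 24 (16.4%, 32.4% and 27.9%, against 35.7%, 39.7% and 24.5%). Neural progenitor genes did so in 15, 11 and 6 (27.3%, 14.9% and 6.98%, against 30.2%, 13.8% and 4.95%), and erythroid genes in 6, 45 and 66 (10.9%, 60.8% and 76.7%, against 6.74%, 39.6% and 76.3%). All these shares use raw UMIs, and the selected cells held more UMIs per cell than the others. In summed CPM, erythroid genes stood at 10907, 246 and 6800 against 22440, 39060 and 21404 in the other cells. Skeletal muscle genes stood at 634.9, 326.7 and 101.2 against 470.9, 824.6 and 771.3, and endothelial genes at 68.6, 51.6 and 115 against 87.9, 80.6 and 139.6. Single cells carried large erythroid sums (up to 10688 and 5712 UMIs at E11.5 and E13.5), skeletal muscle sums (480, 99 and 55) and, at E12.5, a neural progenitor sum of 483. The part of such cells in the results above was not tested.

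As a description, the label therefore held in part. The cells that entered through 1 rule gene, subsets chosen after seeing the data, carried genes of other kinds beside pericyte genes. The 22 cells at E12.5 that entered through Notch3 alone had a median of 32887 UMIs and gave 189.9 CPM over the pericyte list, below the 413 of the other Pdgfrb-positive cells, with Foxs1 and Ndufa4l2 at 0. Ebf1 stood at 25.9 CPM in them against 202. Other genes of the list were above that comparator in these cells: Heyl stood at 36.0 CPM, in 14 of the 22, against 1.99, Mcam at 20.1 against 3.11 and Cspg4 at 12.9 against 5.97. They held the muscle stem cell gene Pax7 at 121 CPM and the myogenic factor genes Myf5 and Myod1 at 53.2 and 77.7. Over all selected cells Pax7 was found in 1, 14 and 4, each of which also held Notch3. Notch3, which is in the sum that chose the cells, was found in 35, 56 and 53 selected cells. The 16 cells at E11.5 that entered through Rgs5 alone also had Foxs1 and Ndufa4l2 at 0, but held Vtn at 305 CPM and Heyl at 25.1 and gave 962 over the list, against 1050 in all selected cells and 255 in the other Pdgfrb-positive cells. Most of the 962 came from Ebf1 (427) and Vtn in these cells. They held the mesenchymal factor genes Foxd1 at 883 and Sox9 at 284 CPM. Cells with 3 or 4 of the summed genes gave 1679, 1654 and 1653 CPM over the pericyte list. Just inside the threshold, cells with a sum of 4 (14, 27 and 26 cells) gave 839, 316 and 827, and cells just outside, with a sum of 3 and the other conditions met (35, 45 and 52 cells), gave 472, 537 and 631. At E12.5 the cells just outside were thus above those just inside in this sum. Ebf1 (195 against 103 CPM) and Vtn (113 in 4 cells against 18.4 in 2) went that way, while Heyl (7.82 against 13.8) and Mcam (3.91 against 9.20) did not.

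Pdgfra, the receptor gene that marks fibroblast-like mesenchyme, was found in 29, 39 and 42 of the selected cells and not in 26, 35 and 44. This split was also chosen after the data were seen, and a cell with no UMI may still express the gene. Median UMIs were 18728.5, 17894 and 16522 without Pdgfra and 15875, 19663 and 17121.5 with it, and median sums of the 4 rule genes 7, 7 and 8 against 5 at each stage. Without Pdgfra, 8 of 13, 13 of 18 and 8 of 16 pericyte genes were at least 2-fold higher and 1, 3 and 2 lower; over all genes 7.13%, 5.73% and 5.1% were higher and 9.09%, 11.1% and 10.6% lower. Of the fibroblast genes none was higher without Pdgfra, and 3 of 12, 12 of 14 and 10 of 15 were lower; Pdgfra itself is on that list. Genes of other cell types moved with the split, and their part was not tested: without Pdgfra, 6 of 6 skeletal muscle genes (1260 against 12.09 CPM in sum) and 8 of 8 erythroid genes (21744 against 108.8) were higher at E11.5. At E12.5, 3 of 4 neural progenitor genes (1218 against 45.44 CPM) and 3 of 3 endothelial genes (98.34 against 15.15) were higher. At E13.5 no erythroid gene was higher and 4 of 6 were lower (346.8 against 13219). The contrasts in erythroid, skeletal muscle and neural progenitor genes rest in large part on 1 cell each. Taken list by list, the highest cell held 10688 erythroid UMIs at E11.5, 480 skeletal muscle UMIs at E11.5, 483 neural progenitor UMIs at E12.5 and 5712 erythroid UMIs at E13.5.

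Heyl stood at 123, 97.0 and 88.2 CPM without Pdgfra and at 20.2, 7.07 and 36.1 with it, log2 ratios of 2.61 (1.64 to 3.74), 3.78 (2.67 to 5.14) and 1.29 (0.66 to 1.96). Mcam stood at 80.9, 89.3 and 132 CPM against 10.1, 11.1 and 30.0, Gucy1b1 at 64.7, 99.6 and 139 against 18.1, 4.04 and 32.4, and Itga1 at 182, 162 and 256 against 40.3, 12.1 and 63.7. These genes were higher in the cells without Pdgfra in all 3 libraries. Nrarp (56.6, 33.6 and 21.8 CPM against 6.05, 3.03 and 7.21) and Mef2c (226, 168 and 232 against 52.4, 20.2 and 92.5) went the same way. Acta2 was higher without Pdgfra at each stage (1703, 559 and 1434 against 316, 351 and 496 CPM), and Myl9 at E11.5 and E13.5 but not at E12.5, where it stood at 177 against 176. At E11.5 the 2 highest cells held 410 and 201 of the 842 Acta2 UMIs without Pdgfra. At E12.5 Acta2 was found in 22 of 35 cells without Pdgfra and 24 of 39 with it. The cells with Pdgfra held more of the fibroblast genes at E12.5 and E13.5: Dcn, the proteoglycan decorin, stood at 266 and 677 CPM against 23.3 and 237 without, and Col1a1 at 1300 and 2442 against 250 and 1033. At E11.5 Col1a1 did not differ beyond counting error (463 against 441, log2 ratio 0.07, -0.20 to 0.34). S1pr3 ran against its list, at 24.3, 28.5 and 48.3 CPM without Pdgfra and 72.5, 68.7 and 70.9 with it.

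**Figure D4:**
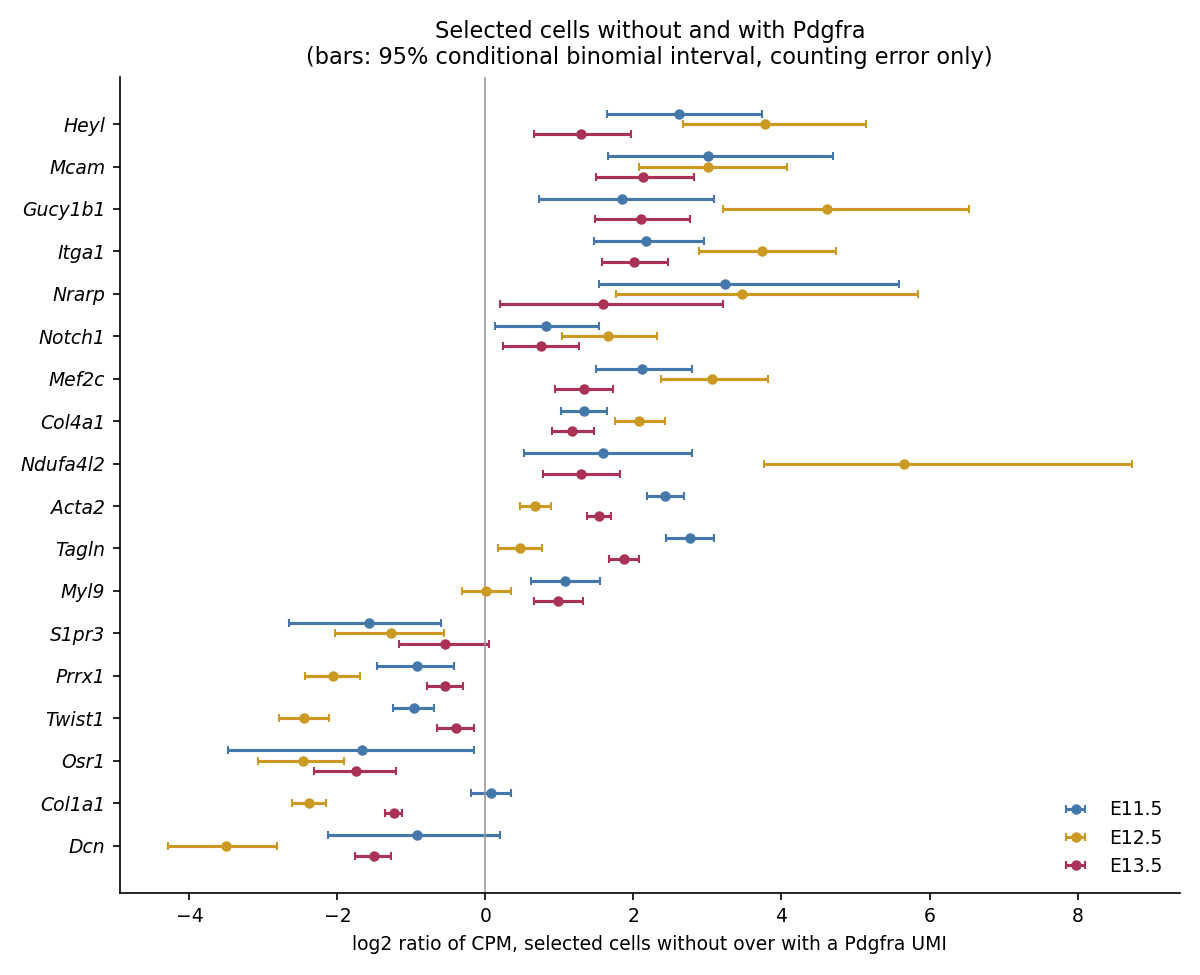
Log2 ratio of CPM between selected cells without and with a Pdgfra UMI (x axis) for 18 genes (y axis), 1 point per stage with its 95% conditional binomial interval, which covers counting error only. Heyl, Mcam, Gucy1b1, Itga1, Nrarp, Notch1, Mef2c, Col4a1, Ndufa4l2, Acta2 and Tagln lie above 0 at each stage, and Prrx1, Twist1 and Osr1 below 0.

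Between stages the selected cells were compared with each other, beside the same ratio in the other Pdgfrb-positive cells; the changing mix of rule genes described above moves with these ratios. From E11.5 to E12.5, 3 of 19 pericyte genes were at least 2-fold higher and 2 lower, beside 9.19% and 4.52% of all genes. From E12.5 to E13.5, 3.44% of all genes were at least 2-fold higher and 9.75% lower, and of 18 pericyte genes 5 were higher and 2 lower. Cox4i2, a cytochrome oxidase subunit known from pericytes, stood at 7.07, 10.8 and 57.2 CPM, a log2 ratio between the later stages of 2.41 (1.69 to 3.20) against 0.49 in the other Pdgfrb-positive cells. Art3 stood at 8.08, 5.67 and 27.1 CPM, and the transcription factor Ebf1 at 359, 258 and 643, a log2 ratio between the later stages of 1.32 (1.16 to 1.48) against -0.14. Gucy1a1 went from 14.1 to 86.2 CPM between E11.5 and E13.5, a log2 ratio of 2.61 (1.81 to 3.52), and was at -2.10 in the other Pdgfrb-positive cells. The homeobox gene Meox2 stood at 29.3, 32.3 and 102 CPM, a log2 ratio of 1.66 (1.22 to 2.12) between the later stages against -0.03. For Art3 the ratio between the later stages was 2.26 (1.25 to 3.41) against 0.54. Among the cells with at least 2 of the 4 summed genes, Ebf1 stood at 445 and 663 CPM at the later stages, Art3 at 11.2 and 29.3 and Cox4i2 at 18.0 and 63.4, smaller differences than over all selected cells. The Ebf1 log2 ratio in members at E13.5 over E12.5 was then 0.57 (0.40 to 0.75), and the Gucy1a1 log2 ratio in members at E13.5 over E12.5 was 0.51 (0.07 to 0.98) in place of 1.36. The differences from the comparator were not tested.

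Other genes were highest at E11.5. Vtn, the matrix protein vitronectin, stood at 274.6, 72.0 and 39.8 CPM, a log2 ratio from E11.5 to E13.5 of -2.79 (-3.20 to -2.39) against -0.75 in the other Pdgfrb-positive cells. Its UMIs came from 29, 13 and 10 cells, and the 5 highest held 39%, 82.7% and 69.7% of them. Of the cells with Vtn, 24, 12 and 9 also held Rgs5, found in 46, 29 and 25 selected cells. The part of this mix in the Vtn ratio was not tested. Foxf2, a forkhead factor of pericytes, stood at 35.3, 7.94 and 5.42 CPM (-2.70 against -2.48), Foxc1 at 212, 58.4 and 29.5 (-2.84 against -2.53) and Foxd1 at 509.7, 116 and 36.2 (-3.82 against -3.14). The retinoic acid enzyme gene Aldh1a2 stood at 686, 133 and 58.4 CPM (-3.55 against -2.24). For the forkhead genes the comparator moved by nearly as much. Over this interval 7.86% of all genes were 2-fold higher and 9.56% lower.

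Fibroblast genes were higher at the later stage in both groups: 12 of 15 were at least 2-fold higher at E13.5 than at E11.5 (all genes: 7.86%). Their median log2 ratio was 1.5, against 2.57 in the other Pdgfrb-positive cells. Dcn stood at 32.3, 159 and 457 CPM, and the matrix genes Ogn at 1.01, 72.6 and 174 and Mgp at 9.08, 192 and 395. Immediate early and stress genes, which dissociation can induce, were 2-fold higher in 12 of 18 cases from E12.5 to E13.5 (all genes: 3.44%). Their median log2 ratio was 1.23, and 1.35 in the comparator. Several genes with the lowest ratios rested largely on 1 cell each: the highest cell held all 82 UMIs of Tnnc2 and 97.6% of those of Mylpf at E11.5, and 94.7% of those of Msx1 and 477 of the 899 of Fabp7 at E12.5.

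**Figure D5:**
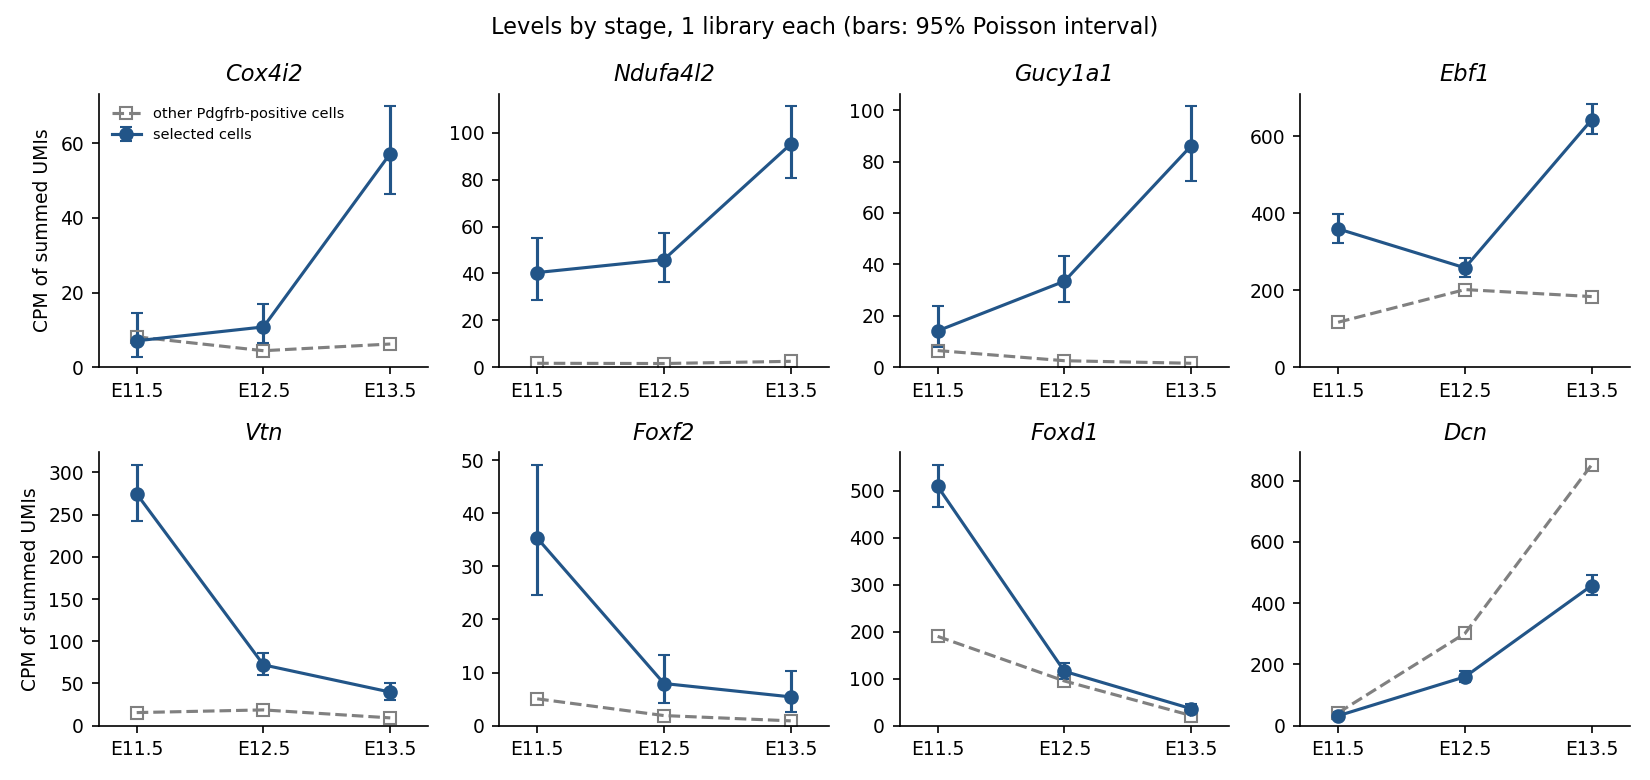
CPM of summed UMIs (y axis) at each stage (x axis, 1 library each) for 8 genes, in the selected cells (filled circles, 95% Poisson interval) and the other Pdgfrb-positive cells (open squares); lines join stages and show no replicate. In the selected cells Cox4i2, Ndufa4l2, Gucy1a1, Ebf1 and Dcn are highest at E13.5 and Vtn, Foxf2 and Foxd1 at E11.5; in the other Pdgfrb-positive cells Ndufa4l2 and Dcn are also highest at E13.5.

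Outside the lists, 1 of the 12 leading genes against the other cells at E11.5 and E12.5, though not at E13.5, was Igfbp7, a secreted protein of vessels, at 85.8, 101 and 103.6 CPM against 2.37, 4.76 and 12.4. At least 4-fold higher than in the other cells were 159, 53 and 81 genes (1.75%, 0.479% and 0.775% of those counted). Genes at least 4-fold higher in members than in other cells at E12.5 numbered 90 to 101 under 5 other choices of cells or averaging, and 33 with at most 5% mitochondrial UMIs. Against the other Pdgfrb-positive cells 188, 104 and 108 genes were (2.13%, 0.973% and 1.05%). Among the 12 leading genes of each stage, Myh11 at E11.5, Gm36660 at E12.5, and Akr1c18 and Gm29480 at E13.5 came from 1 cell each. Of 21, 22 and 22 Hox genes counted, none was 2-fold higher and 11, 8 and 7 were at least 2-fold lower than in the other cells, which include the neural tube (all genes lower: 6.84%, 7.34% and 7.2%). Against the other Pdgfrb-positive cells 3 of 17, 0 of 22 and 8 of 23 were lower (all genes: 2.93%, 2.38% and 5.67%) and 1, 3 and 0 higher. Against the endothelial cells 11 of 17, 5 of 23 and 7 of 22 were higher and 1, 3 and 5 lower (all genes: 15%, 8.32% and 8.33% higher, 10.1%, 10% and 12.1% lower).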

How the data were processed

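The deposited matrices hold whole-number counts of UMIs per gene and barcode, which the authors made with Cell Ranger 8.0.1 on GRCm39, per the submitters' processing notes; the files list 1116619 to 1287441 barcodes each, so empty droplets are included. From these counts cells and selected cells were taken by the rule, UMIs were summed per library and group, and levels were expressed as CPM. Poisson intervals were given for levels, Clopper-Pearson intervals for shares and exact conditional binomial intervals for ratios, all at 95%. No test was run, as there is 1 library a stage. Genes entered a comparison with at least 10 observed or expected UMIs in the selected cells. Other Pdgfrb-positive cells have at least 1 Pdgfrb UMI and 0 of Rgs5, Kcnj8, Abcc9, Notch3, Cdh5, Elavl3 and Sox10; macrophages have at least 4 UMIs of the C1q genes and 1 of Csf1r; endothelial cells have at least 2 of Cdh5. Free RNA was read from barcodes with 50 to 500 UMIs. Doublets were called with scrublet in scanpy 1.11.5 and kept. Shares of cells with a UMI were read after thinning each cell to 4000 UMIs. The members and gene lists were chosen with earlier results of these data known; any listed gene could be named, with the 12 leading genes of each stage, the 8 highest and 8 lowest between stages, and the 5 most like Rgs5, of which none is given for its likeness, since the rule fixes Rgs5. The calculation was tested on simulated gene totals with counting error only and no variation between cells. That test therefore says nothing on genes whose UMIs lie in few cells. Python 3.11.15, numpy 2.4.6, scipy 1.17.1 and pandas 2.3.3 were used. Alternatives changed the threshold, the genes summed, the Pdgfra condition, the cell filters, doublets, free RNA, the averaging, the gene filter and the comparator.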

Additional observations from a re-analysis of the deposited data

Results flagged for a closer look

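For 4 genes the ratio of the selected cells to the other cells of the library pointed in opposite directions at different stages; the differences between stages were not tested. The muscle actin gene Actc1 had a log2 ratio of 1.37 at the first stage (E11.5) and -2.25 and -3.08 at the later ones, with 195 of its 302 UMIs at E11.5 in 1 cell. Myh3, an embryonic muscle myosin, had 1.13 at E11.5, all 33 UMIs in 1 cell, and -4.26 and -4.60 at the later stages. Col9a1, a cartilage collagen chain, had 1.18 at E11.5 (167 against 73.5 CPM) and -1.42 at E12.5 (28.9 against 77.4), with at most 12 of 165 and 10 of 51 UMIs in 1 cell. The transporter gene Slc6a13 had 2.20 at E11.5 (11 UMIs) and -2.46 at E13.5 (3 UMIs).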

How the results depend on the processing

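No paired analysis was possible because each stage is 1 library, so no replicate could be left out either. The share of members at E11.5 (0.871%), share of members at E12.5 (1.21%) and share of members at E13.5 (1.21%) moved with the rule, in that order: 1.43%, 1.94% and 1.94% with a threshold of 3 UMIs, 0.428%, 0.603% and 0.661% with 6, 0.602%, 0.635% and 0.928% without Notch3 in the sum, 0.412%, 0.57% and 0.618% with Pdgfra at 0, and 0.57% and 0.717% at the first 2 stages with at least 2 of the 4 genes. Applying the rule after thinning, an alternative chosen after seeing the data, left 0.095%, 0.0977% and 0.127%. The 53 genes 4-fold higher at E12.5 became 93 with a threshold of 6 UMIs, 101 without Notch3, 93 with at least 2 genes, 99 with Pdgfra at 0, 33 with a mitochondrial maximum of 5%, 90 with the mean of per-cell CPM and 104 against the other Pdgfrb-positive cells. Without a filter beyond 1 UMI, genes at least 4-fold higher in members than in other cells at E11.5 numbered 844, and 510 and 500 at the later stages, and from E12.5 to E13.5 919 genes were 2-fold higher (365 with the filter) and 1684 lower (1035). Signs turned for 4 genes. Cnn1 against the other cells at E13.5 went from 1.04 to -1.93 with a threshold of 6 UMIs, -0.69 with Pdgfra at 0 and -0.66 without the cell holding most of its UMIs, the last chosen after seeing the data. Pdgfa at E12.5 went from 1.33 to -0.61 without Notch3 and -0.71 with at least 2 genes, and from E12.5 to E13.5 from -1.32 to 0.45 and 0.53. Aldh1a2 at E13.5 went from 1.34 to -0.05 with Pdgfra at 0, and Gja4 at E12.5 from 1.24 to -0.67 with the 5% mitochondrial maximum. The cause was not tested. Among 1821 recomputed ratios to other cells 7 reversed, 575 moved beyond their counting interval and 1239 did not; between stages 2, 270 and 1403 of 1675; in the Pdgfra split 0, 22 and 143 of 165, those alternatives also added after seeing the data. Low genes with under 10 UMIs are limited by depth.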
